A study of Homo sapiens with 6 samples.

Results

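Keratins are the intermediate filament proteins of epithelial cells. The 10 keratin genes *KRT7*, *KRT8*, *KRT10*, *KRT15*, *KRT17*, *KRT18*, *KRT19*, *KRT20*, *KRT23* and *KRT80* were examined in parental HCT116 cells, a human colon carcinoma line, and in HCT116 cells without ZKSCAN3, a zinc finger transcription factor. They were taken from the table by symbol, each was found once among 46427 genes, and all 10 were among the 18366 genes that passed the expression filter. RNA of 3 biological replicates of parental cells with wild type *ZKSCAN3* (*ZK3*-WT) and of 3 replicates of knockout cells (*ZK3*-KO) was sequenced from stranded libraries of polyadenylated RNA, with 60827060 to 69739215 reads counted per library. In *ZK3*-KO cells CRISPR/Cas9 had been aimed at the first exon to remove the start codon, with both alleles mutated, and both groups were grown in the same serum-containing medium. The *ZK3*-KO line came from single-cell selection under puromycin after plasmid transfection, and no such selection is described for the parental cells, so that clone and genotype cannot be told apart.

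Each keratin filament is built from pairs of 1 acidic type I chain and 1 basic type II chain. KRT8 (type II) with KRT18 (type I) forms the basic filament network of simple epithelium such as the colon lining, KRT19 is a further type I chain of the same cells, and KRT20 is a type I chain of differentiated gut epithelium that pathologists use, with KRT7, to trace the origin of carcinomas. KRT10, KRT15 and KRT17 are type I chains better known from the skin, where they mark differentiating layers, basal and hair follicle cells, and wounded or appendage epithelium, respectively. KRT23 is a type I chain and KRT80 a type II chain of epithelial cells. The genes lie in 2 clusters. On GRCh37, *KRT80* (NCBI Gene 144501, chr12:52562780-52585798, reverse strand), *KRT7* (3855, chr12:52626304-52645970, forward strand), *KRT8* (3856, chr12:53290971-53343738, reverse strand) and *KRT18* (3875, chr12:53342655-53346690, forward strand) lie on chromosome 12. *KRT10* (3858, chr17:38974369-38978866), *KRT20* (54474, chr17:39032141-39041494), *KRT23* (25984, chr17:39078952-39093898), *KRT15* (3866, chr17:39669997-39678781), *KRT19* (3880, chr17:39679869-39684560) and *KRT17* (3872, chr17:39775694-39781094) lie on the reverse strand of chromosome 17.

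Some facts of the whole series touch every value below. *ZKSCAN3* itself had between 13.6 and 28.1 CPM (reads scaled to library size with TMM factors) in the 6 libraries, and its log2 fold change was -0.16 (standard error 0.27, edgeR FDR 0.797), so that its read count did not separate the genotypes. *ZK3*-KO replicate 3 stood apart from the other libraries of its genotype, with a correlation of log2 CPM of 0.973 and 0.961 to them, against 0.991 to 0.995 among *ZK3*-WT replicates. Same-numbered libraries of the 2 genotypes strayed from their group means in parallel, less clearly for number 2. Their correlations across genes were 0.473, 0.124 and 0.616 for numbers 1 to 3, against up to 0.289 for differently numbered libraries. A fit with the replicate number as a block is given where it changes a call, and such calls rest on this pairing. Of 11 epithelial markers, summed to 907 to 1087 CPM in *ZK3*-WT and 697 to 1567 CPM in *ZK3*-KO libraries, *VIL1*, *LGALS4* and *CDH17* stayed below 1 CPM and *CDX1* was at 0 reads in every library, while *EPCAM* and *ESRP1* had 217 to 344 and more than 160 CPM. In bulk RNA, fewer cells of a kind and less RNA per cell cannot be told apart.

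On the scale of TPM, which scales reads to transcript length and library size, the keratin pool consisted almost wholly of *KRT8*, *KRT18* and *KRT19*. These 3 genes made up between 97.2% and 99.2% of the summed TPM of the 10 genes in every library. *KRT8* was the most abundant, with 1728 ± 247 TPM (SD, n = 3) in *ZK3*-WT cells and 1746 ± 348 TPM (SD, n = 3) in *ZK3*-KO cells. *KRT18* followed with 1194 ± 319 and 1178 ± 465 TPM, and *KRT19* with 1083 ± 98.1 and 922 ± 365 TPM (SD, n = 3 each). The ranges of *KRT18* and *KRT19* overlapped in both genotypes, and *KRT18* was above *KRT19* in 2 of 3 libraries of each, so the order of these type I chains was not resolved. The range of *KRT8* lay wholly above that of *KRT18* in *ZK3*-WT cells and overlapped it in *ZK3*-KO cells, where *KRT8* was still the higher of the pair in all 3 libraries.

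The other 7 genes lay far below. In *ZK3*-WT cells the order was *KRT23* (49.6 TPM on average), *KRT15* (15.5), *KRT10* (15.3), *KRT80* (10.1), *KRT7* (4.49), *KRT20* (1.62) and *KRT17* (0.516), in which the neighbours *KRT15* and *KRT10*, *KRT10* and *KRT80*, and *KRT80* and *KRT7* overlapped. In *ZK3*-KO cells it was *KRT10* (16.4 TPM), *KRT15* (10.9), *KRT23* (6.86), *KRT7* (2.10), *KRT80* (1.58), *KRT20* (0.922) and *KRT17* (0.431), and every neighbouring pair overlapped. *KRT23* therefore held rank 4, clear of the next gene, in *ZK3*-WT cells but rank 6, within the range of its neighbours in *ZK3*-KO cells. *KRT20*, a marker of colonic differentiation, was near the bottom of the order in both.

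**Figure D1:**
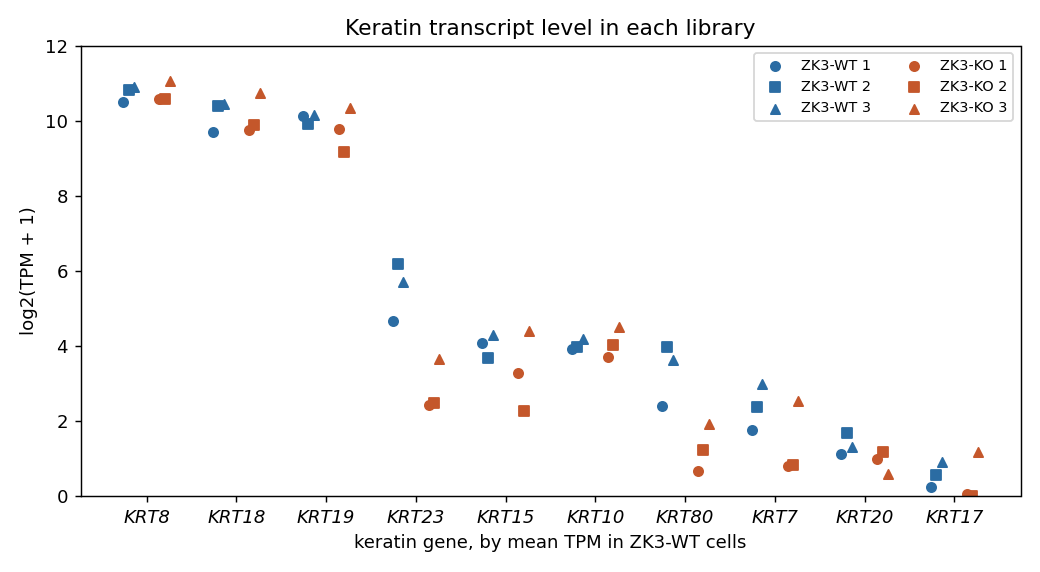
Level of each of the 10 keratin genes, as log2(TPM + 1), in the 3 *ZK3*-WT libraries (blue) and the 3 *ZK3*-KO libraries (orange), with a symbol for each replicate number. *KRT8*, *KRT18* and *KRT19* sit far above the other 7 genes in all 6 libraries, and the 2 colours separate fully for *KRT23* and *KRT80*.

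Differences were tested with the quasi-likelihood method of edgeR, in which a gene passed at a false discovery rate (FDR) under 0.05. With all 6 libraries, none of the 10 keratin genes passed in edgeR. Over all 18366 genes, 2.05% passed in either direction and 1.23% passed as lower in *ZK3*-KO cells. At an unadjusted p-value under 0.05 in edgeR there were 2 keratin genes, *KRT23* and *KRT80*, beside 3371 of all 18366 genes tested. DESeq2 also called these 2, beside 1288 of the 28275 genes it held. Linear models on log2(CPM + 1) and on log2(TPM + 1) each called 1, *KRT23*, beside 422 and 382 of all 18366 genes. The same shares stand beside the counts of the other lists below at this p-value, in DESeq2 and in the linear models. With the replicate number as a block, edgeR called *KRT23* and *KRT80* as lower in *ZK3*-KO cells. Over all genes that fit called 1.54% as lower and 2.51% in either direction. The median log2 fold change of the 10 genes was -0.18, beside 0.02 over all genes tested.

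*KRT23* had the largest fold change of the 10 genes between the genotypes. It stood at 22.8, 69.2 and 48.1 CPM in the wild-type libraries 1 to 3 and at 4.38, 4.43 and 12.7 CPM in the knockout libraries 1 to 3. Every *ZK3*-KO library was thus below every *ZK3*-WT library. The log2 fold change was -2.70 (standard error 0.56, edgeR FDR 0.0598), a 6.51-fold lower level, and it was -2.74 (standard error 0.40) with an FDR of 0.0264 in the same test with the replicate block. Within the *ZK3*-WT group the highest library held about 3 times as much *KRT23* as the lowest.

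*KRT80* showed the same order of libraries. Its values were 8.08, 26.4 and 21.0 CPM in the wild-type libraries 1 to 3, and 1.12, 2.55 and 6.60 CPM in the knockout libraries 1 to 3. The groups did not overlap, although *ZK3*-WT replicate 1 and *ZK3*-KO replicate 3 came close to each other. The log2 fold change was -2.43 (standard error 0.68, edgeR FDR 0.127), a 5.40-fold lower level, and -2.62 (standard error 0.35, FDR 0.0212) with the replicate block. *KRT23* and *KRT80* lie on different chromosomes, yet their log2(CPM + 1) values ran in parallel over the 6 libraries (Pearson's r = 0.981, n = 6, given as a description since the points share genotype and library). They were the only keratin genes among the 10 whose groups did not overlap, and 13.8% of all genes were separated in this direction and 26.6% in either direction.

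A second group, *KRT7*, *KRT15* and *KRT17*, was low in *ZK3*-KO replicates 1 and 2 and high in *ZK3*-KO replicate 3. *KRT19*, given below with the abundant chains, was likewise below the *ZK3*-WT range in *ZK3*-KO replicates 1 and 2 and above it in replicate 3. *KRT7* stood at 2.26, 3.62 and 5.94 CPM in the wild-type libraries 1 to 3 and at 0.683, 0.692 and 5.39 CPM in the knockout libraries 1 to 3. *KRT15* stood at 18.7, 12.5 and 21.9 CPM in the wild-type libraries 1 to 3 and at 9.60, 3.94 and 29.4 CPM in the knockout libraries 1 to 3, in the same order. The annotation of *KRT7* overlaps that of *KRT86* on the same strand, so a few of its reads may belong to *KRT86*. The groups of both *KRT7* and *KRT15* overlapped, as *ZK3*-KO replicate 3 lay within or above the *ZK3*-WT range while replicates 1 and 2 lay below it. *KRT17* was barely detected, with 9, 24 and 46 reads in the wild-type libraries and 3, 0 and 71 reads in the knockout libraries. Its pseudogenes held a further 14, 9 and 29 and 14, 3 and 34 reads in the same order, so that reads of *KRT17* and of these near-identical copies may have been divided between them and its values are uncertain. With all libraries the log2 fold changes of *KRT7* and *KRT15* were -0.81 (standard error 0.82) and -0.31 (standard error 0.64), with FDR values of 0.651 and 0.838 from edgeR, within the spread between replicates.

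The abundant chains of simple epithelium did not separate the genotypes. *KRT8* stood at 1259, 1524 and 1656 CPM in the wild-type libraries 1 to 3 and at 1345, 1339 and 2332 CPM in the knockout libraries 1 to 3. *KRT18* stood at 563, 882 and 951 CPM in the wild-type libraries 1 to 3 and at 593, 645 and 1449 CPM in the knockout libraries 1 to 3. For both genes *ZK3*-KO replicate 3 was the highest and *ZK3*-WT replicate 1 the lowest of all libraries. *KRT19* stood at 755, 624 and 764 CPM in the wild-type libraries 1 to 3 and at 590.3, 385 and 1083 CPM in the knockout libraries 1 to 3, so that *ZK3*-KO libraries lay at both ends of its range. The log2 fold changes were 0.18 (standard error 0.26) for *KRT8*, 0.16 (standard error 0.38) for *KRT18* and -0.06 (standard error 0.35) for *KRT19*, with FDR values of 0.765, 0.854 and 0.954 from edgeR. These differences were smaller than the spread between replicates. They rest on 26708 to 144089 reads per gene and library. The sign of *KRT18* turned on the log2(TPM + 1) scale, where it was at -0.049.

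*KRT10*, the keratin of differentiating epidermis, and *KRT20*, that of differentiated gut epithelium, lay at opposite ends of their ranges in *ZK3*-KO replicate 3. *KRT10* stood at 14.5, 14.6 and 17.6 CPM in the wild-type libraries 1 to 3 and at 12.5, 15.9 and 27.9 CPM in the knockout libraries 1 to 3, with the highest value in *ZK3*-KO replicate 3. *KRT20* stood at 1.05, 1.84 and 1.27 CPM in the wild-type libraries 1 to 3 and at 0.869, 1.11 and 0.550 CPM in the knockout libraries 1 to 3, with the lowest value in the same library, from between 34 and 129 reads per library. The genotypes overlapped for both genes. The log2 fold changes were 0.27 (standard error 0.30) and -0.72 (standard error 0.37), with FDR values of 0.684 and 0.359 from edgeR. *KRT20* was the only one of the 10 genes that was lowest in *ZK3*-KO replicate 3, where 6 of the 10 were highest. For comparison, 28.8% of all tested genes had their highest value in that library.

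The promoter windows of *KRT10* and *KRT20* are shown because these genes of 1 cluster took opposite ends of the range in the same library. That choice followed from their values, and whether the windows had a part in these levels was not tested. RefSeq's table for GRCh38.p14 held a window for 3 of the 10 genes, *KRT8*, *KRT10* and *KRT20*, from 250 bases before to 50 bases after the gene start. The window of *KRT8* is not printed, since only 1 of its 18 annotated GRCh37 transcripts starts there. Matched to GRCh37, the windows of *KRT10* and *KRT20* lie exactly at annotated transcript starts. They are given 5′ to 3′ on the gene's strand, which is the reverse strand, with the motif matches in capitals. On GRCh38.p14 the window of *KRT10* spans chr17:40822565-40822864 and that of *KRT20* spans chr17:40885193-40885492. On GRCh37 they span chr17:38978817-38979116 and chr17:39041445-39041744.
KRT10: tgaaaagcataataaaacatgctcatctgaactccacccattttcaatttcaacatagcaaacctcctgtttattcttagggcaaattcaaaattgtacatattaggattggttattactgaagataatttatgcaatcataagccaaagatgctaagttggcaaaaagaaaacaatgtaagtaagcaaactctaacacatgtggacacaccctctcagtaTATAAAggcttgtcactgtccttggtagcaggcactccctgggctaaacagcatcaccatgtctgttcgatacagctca
KRT20: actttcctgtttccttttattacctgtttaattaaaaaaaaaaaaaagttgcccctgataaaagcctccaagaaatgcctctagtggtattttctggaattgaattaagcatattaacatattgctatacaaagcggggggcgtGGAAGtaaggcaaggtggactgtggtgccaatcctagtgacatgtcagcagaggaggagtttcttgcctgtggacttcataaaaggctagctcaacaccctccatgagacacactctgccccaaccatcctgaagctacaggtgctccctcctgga

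The windows were searched on both strands for the TATA box TATAAA, the AP-1 motif TGANTCA, the GC box GGGCGG and the ETS core GGAAG, which do not overlap in these windows. *KRT10* held 1 TATA box, which begins 29 bases before the start and which 11.5% of 35116 windows of this length hold. *KRT20* held 1 ETS core, 106 bases before the start, a match that 71.9% of all windows hold. Neither window held the AP-1 motif (7.71% of all windows) or the GC box (45.0%). A match describes the letters of the window, not a bound site.

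The differences depended most on *ZK3*-KO replicate 3. Without it, 5 of the 10 keratin genes passed the edgeR threshold, all as lower in *ZK3*-KO cells, beside 7.73% of all genes that passed as lower and 15.1% in either direction. The log2 fold changes were then -3.41 for *KRT23* (edgeR FDR 0.00253), -3.33 for *KRT80* (FDR 0.00712), -2.51 for *KRT7* (FDR 0.00830) and -1.38 for *KRT15* (FDR 0.0378). *KRT17* was the fifth (edgeR FDR 0.0378), but it rests on 3 reads in the 2 remaining *ZK3*-KO libraries together, and its fold in that fit depends on so few reads that it is not read as a size. *KRT8*, *KRT18*, *KRT19*, *KRT20* and *KRT10* did not pass in that fit either, with log2 fold changes between -0.54 and -0.13. Leaving out any other library gave no keratin gene past the threshold. The median log2 fold change over the 10 genes was -0.96 without that library, beside -0.02 over all genes. In the same fit 2 of 7 tested epithelial markers, the claudin genes *CLDN3* and *CLDN4*, also passed as lower (log2 fold changes of -1.07 and -1.02, edgeR FDR 0.00755 and 0.00355), and the part of this in the keratin values was not tested.

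**Figure D2:**
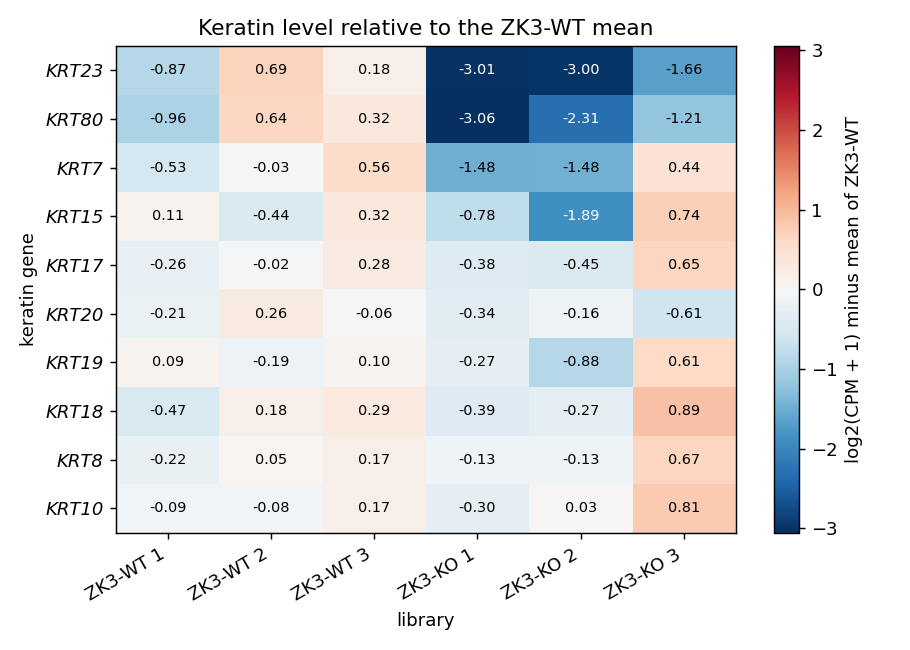
Level of each keratin gene (rows) in each library (columns), as log2(CPM + 1) minus the mean of the 3 *ZK3*-WT libraries, with the value printed in each cell. *KRT23*, *KRT80* and, by less, *KRT20* are negative in all 3 *ZK3*-KO libraries, whereas *KRT7*, *KRT15*, *KRT17*, *KRT19*, *KRT18*, *KRT8* and *KRT10* are positive in *ZK3*-KO replicate 3 and, except for *KRT10* at 0.03 in replicate 2, negative in the other *ZK3*-KO libraries.

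**Figure D3:**
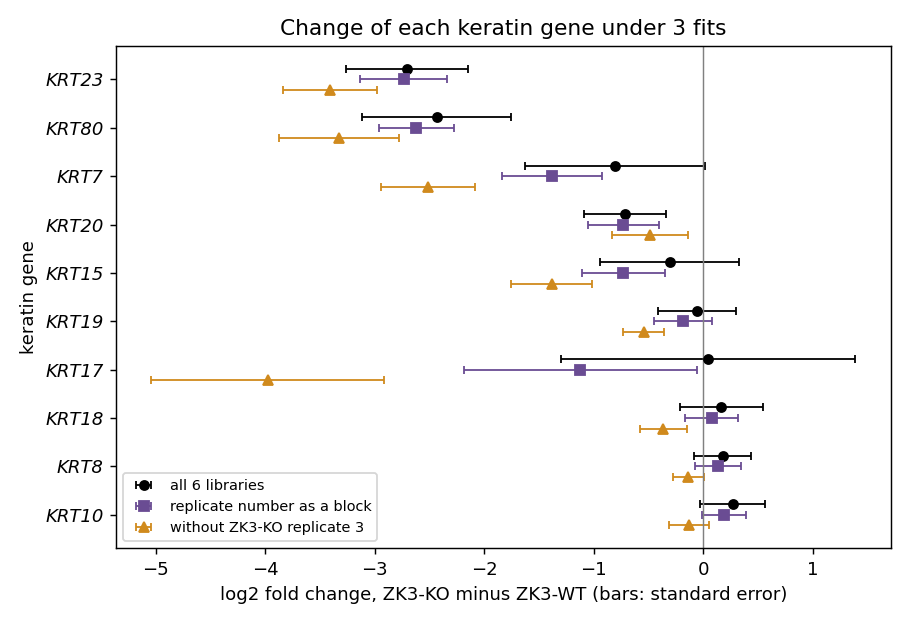
Log2 fold change of each keratin gene between *ZK3*-KO and *ZK3*-WT cells with its standard error, from edgeR with all 6 libraries (black circles), with the replicate number as a block (purple squares) and without *ZK3*-KO replicate 3 (orange triangles). *KRT23* and *KRT80* stay below -2 in all 3 fits, while *KRT7*, *KRT15* and *KRT17* lie far lower without that library, and the value of *KRT17* in that fit rests on a few reads.

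Because filaments need both kinds of chain, the balance of the chains was compared within each library on the TPM scale. The summed TPM of the 10 genes was 3469, 4259 and 4581 in the wild-type libraries 1 to 3, and 3336, 3093 and 5227 in the knockout libraries 1 to 3, or between 0.309% and 0.523% of all transcripts. The ratio of type I to type II chains was 1.38, 1.32 and 1.37 in the wild-type libraries and 1.15, 1.01 and 1.43 in the knockout libraries. It was nearly constant among the *ZK3*-WT libraries (1.36 ± 0.0351, SD, n = 3) and spread widely among the *ZK3*-KO libraries (1.19 ± 0.213, SD, n = 3), in which replicates 1 and 2 lay below and replicate 3 above the *ZK3*-WT range. The ratio of *KRT18* to its partner *KRT8* was 0.572, 0.741 and 0.734 in the wild-type libraries and 0.564, 0.616 and 0.798 in the knockout libraries. That of *KRT19* to *KRT18*, its fellow type I chain, was 1.36, 0.720 and 0.817 in the wild-type libraries and 1.01, 0.609 and 0.761 in the knockout libraries, highest in replicate 1 and lowest in replicate 2 of each genotype. None of the 4 quantities separated the genotypes, with exact two-sided permutation p-values of 0.8, 0.4, 0.9 and 0.6 in the order given and Benjamini-Hochberg adjusted values of 0.9 for each in this exact test, where 3 libraries against 3 cannot go below 0.1. With libraries paired by replicate number the exact sign-flip permutation p-values were 0.75, 0.5, 0.75 and 0.25, of which 0.25 is the smallest that 3 pairs allow. The ratio of *KRT19* to *KRT18* was lower in the knockout library of all 3 pairs.

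**Figure D4:**
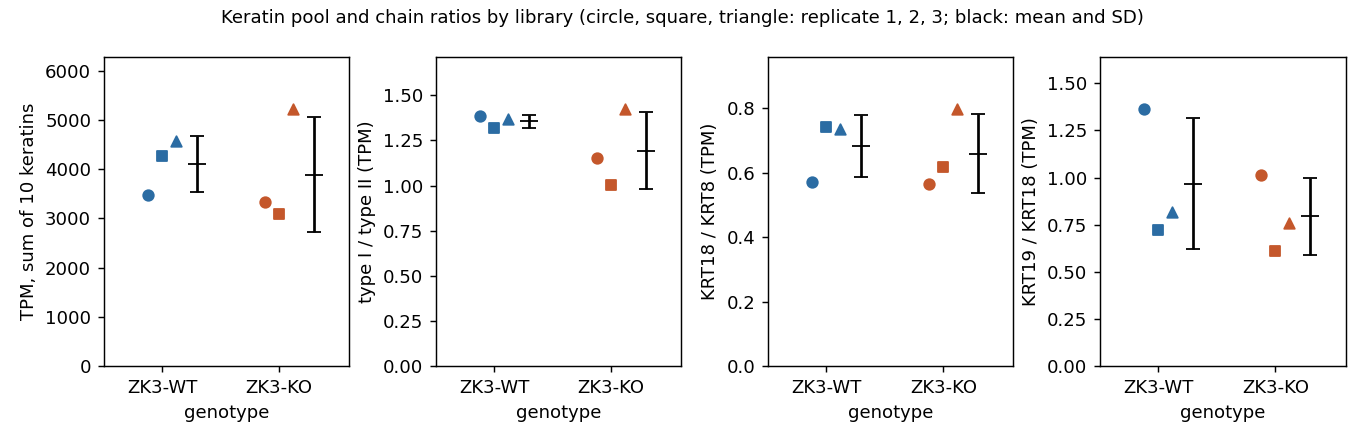
Summed TPM of the 10 keratin genes, the ratio of type I to type II chains, of *KRT18* to *KRT8* and of *KRT19* to *KRT18* in each library (blue, *ZK3*-WT; orange, *ZK3*-KO; circle, square and triangle for replicates 1, 2 and 3), with the mean and SD in black. The 3 *ZK3*-WT values of the type I to type II ratio lie between 1.32 and 1.38, and the *ZK3*-KO values between 1.01 and 1.43.

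The 2 abundant partners had close companions across the libraries. The genes other than keratins whose log2(CPM + 1) followed *KRT8* most closely over the 6 libraries were *SELENOS* (r = 0.999), *ZNF513* (r = 0.998) and *TICAM1* (r = 0.997), and those closest to *KRT18* were *DCAF8* (r = 0.996), *FRG1* (r = 0.993) and *SPOP* (r = 0.992). *SELENOS*, for example, stood at 29.7, 41.8 and 45.6 CPM in the wild-type libraries 1 to 3 and at 33.4, 33.2 and 77.8 CPM in the knockout libraries 1 to 3, the same order of high and low libraries as *KRT8*. *KRT8* and *KRT18* themselves had r = 0.978, and *KRT19* and its neighbour *KRT15* had r = 0.979. These are the highest of many correlations over only 6 points that share their libraries, and they are a description. *KRT8* and *KRT18* overlap at their ends on opposite strands in the annotation, and whether the counting used strand is not given in the sources used here. Pseudogenes of *KRT8* held between 727 and 1016 reads per library, at most 1.14% of the reads of *KRT8*, and those of *KRT18* held 69 to 93 reads, at most 0.243%.

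Of 45 further keratin genes, 20 had no read in any library and 7 passed the expression filter. None of the 7 passed the edgeR threshold, with all libraries or with the block, while *KRT81*, *KRT222* and *KRT32* had an unadjusted p-value under 0.05 in edgeR, and DESeq2 and both linear models called *KRT81* alone. Their median log2 fold change was -0.84. *KRT222*, a truncated keratin-like protein, was the most abundant, with 7.46 ± 0.986 CPM in *ZK3*-WT and 10.2 ± 0.846 CPM in *ZK3*-KO cells (SD, n = 3 each) and 0.45 as log2 fold change (edgeR FDR 0.255). *KRT16*, a keratin of wounded epidermis, followed on the TPM scale. It had 19, 51 and 58 reads in the wild-type libraries and 12, 23 and 226 reads in the knockout libraries, highest in *ZK3*-KO replicate 3 as its neighbour *KRT17* was. Without that library 2 of 8 tested genes of this list, *KRT81* and *KRT86*, passed in edgeR as lower, beside 7.73% of all genes. They are near-identical hair keratins that can share reads. In *ZK3*-KO replicates 1 and 2 *KRT81* had 7 and 0 reads and *KRT86* had 12 and 8, so these calls rest on few reads. Basal squamous markers stood at 0.217 to 1.29 CPM in sum, and *KRT5*, *KRT14*, *TP63*, *DSG3*, *KRT6A* and *KRT13* were each below 1 CPM in every library.

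The neighbourhood of *KRT23* was examined after its values were seen. Between *KRT222* and *KRT17* the chromosome 17 cluster (chr17:38810917-39781094) holds 62 protein-coding genes of the table, of which 28 encode keratins and 34 keratin-associated proteins, the matrix proteins of hair. Of the 16 that passed the expression filter, 7, *KRT23* itself among them, were lower in every *ZK3*-KO library than in every *ZK3*-WT library, beside 13.8% of all genes. The edgeR threshold was passed by 2, both as lower in *ZK3*-KO cells, beside 1.23% of all genes. These 2 were *KRTAP2-3*, with 269, 821 and 893 reads in the wild-type libraries and 50, 29 and 81 reads in the knockout libraries (log2 fold change -3.52, standard error 0.56, edgeR FDR 0.0282), and *KRTAP2-4* (-2.95, standard error 0.42, edgeR FDR 0.0204). Each passed in 11 of 15 alternative fits, and not without *ZK3*-WT replicate 2 or 3 or *ZK3*-KO replicate 1 or 2, with edgeR FDR values of up to 0.152 and 0.127. *KRTAP2-1*, *KRTAP2-2* and *KRTAP3-1* lie beside them and were lower by 2.62 to 2.69 on the log2 scale. Their FDR values were 0.0552 to 0.0850 from edgeR. Apart from *KRT23* and *KRTAP2-3*, the 7 rest on few reads. *KRTAP3-1* had 10, 33 and 37 reads in the wild-type libraries and 3, 6 and 3 in the knockout libraries. *KRTAP2-1* had 24, 56 and 39 and then 6, 3 and 9, and *KRTAP2-2* 34, 68 and 57 and then 11, 3 and 9. *KRT39* had 11, 22 and 19 and then 11, 12 and 0, and its groups nearly met. The KRTAP2 genes are near-identical copies, so reads may have been divided between them and their separate values are uncertain. In the same cluster, *KRT10*, *KRT20*, *KRT32*, *KRT13*, *KRT15*, *KRT19*, *KRT16* and *KRT17* overlapped between the genotypes, and *KRT222* was higher in every *ZK3*-KO library. Among the overlapping genes, *KRT20* and *KRT32* had log2 fold changes of -0.72 and -1.57. In the chromosome 12 cluster (chr12:52562780-53346690) 6 of 27 genes passed the filter and none passed the edgeR threshold. *KRT80* and *KRT81* had an unadjusted p-value under 0.05 in edgeR, were lower in every *ZK3*-KO library and were the 2 called by DESeq2. Of these, *KRT81* rests on few reads, with 45, 57 and 70 in the wild-type libraries and 7, 0 and 17 in the knockout libraries.

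**Figure D5:**
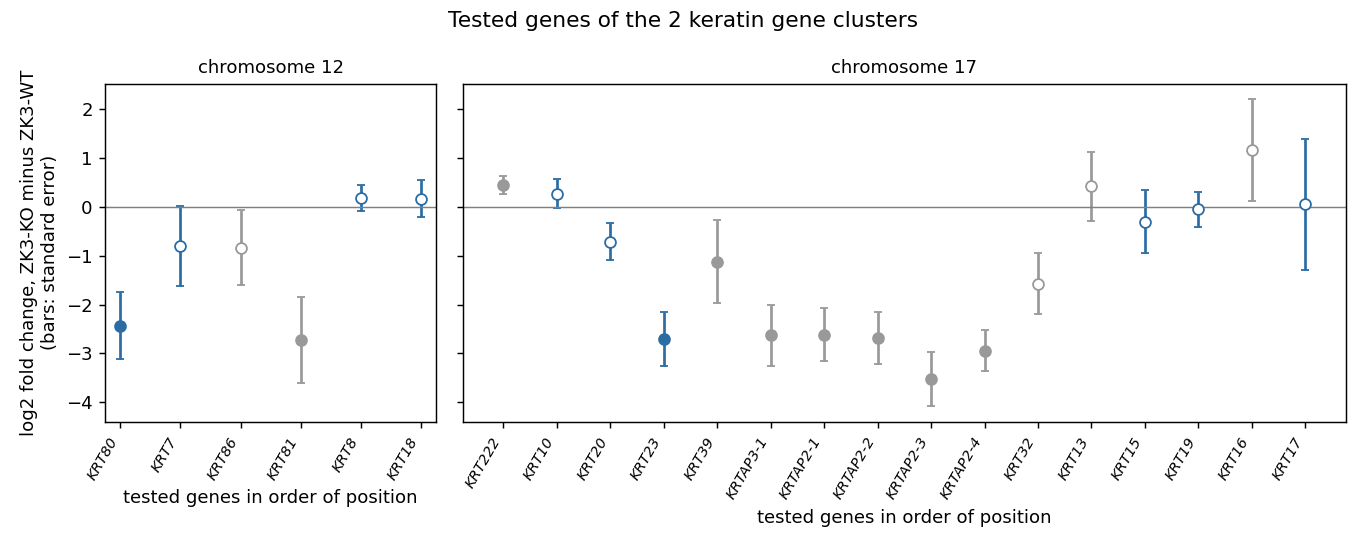
Log2 fold change with its standard error, from edgeR with all 6 libraries, of each tested gene of the keratin clusters of chromosome 12 (left) and chromosome 17 (right), in order of position but not to scale. The 10 keratin genes of the report are blue and others grey, and filled points mark genes whose libraries did not overlap between the genotypes. *KRT23* and the 5 KRTAP genes near it lie between -3.52 and -2.62, with *KRT39* among them at -1.12. The tested genes on either side, *KRT20* and *KRT32*, are at -0.72 and -1.57. *KRT13*, *KRT15*, *KRT19*, *KRT16* and *KRT17* lie between -0.31 and 1.16.

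Transcription factors of epithelial cells, listed together with the splicing regulator *ESRP1* as candidates to act on keratin genes, included 4 genes past the edgeR threshold. Of 31 listed factors 28 were tested, and 3 fell and 1 rose, beside 2.05% of all genes called in either direction. The list was chosen with earlier results of these data known, so its count cannot be judged against that share. The median log2 fold change over the list was -0.11. *EHF*, an ETS factor of epithelial cells, fell from 136, 193 and 135 CPM in *ZK3*-WT to 0.543, 1.14 and 0.761 CPM in the knockout libraries 1 to 3 (log2 fold change -7.56, standard error 0.35, edgeR FDR 5.03e-04). *ETS2*, of the same family, fell by 0.94 on the log2 scale (edgeR FDR 0.0330), and *TFAP2A*, the AP-2 alpha factor of surface epithelia, fell by 0.84 (FDR 0.0375). *GRHL3*, a grainyhead factor of epidermal barrier formation, rose by 3.36 on the log2 scale from a mean of 0.228 to 2.35 CPM (edgeR FDR 0.0282), but it did not pass in the linear models, with limma FDR values of 0.0536 on log2(CPM + 1) and 0.0961 on log2(TPM + 1). DESeq2 and the block called these 4 and *FOXA1*, and the linear models called the 3 that fell. The low level of *EHF* was shared by all 3 *ZK3*-KO libraries, replicate 3 included, and 13.8% of all genes were lower in every *ZK3*-KO library. Whether *EHF* had a part in the keratin levels was not tested. With leave-one-out fits 1 to 6 factors passed, and without any 1 of the libraries other than *ZK3*-KO replicate 3 it was *EHF* alone.

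Of 20 desmosome and plakin genes, which anchor keratin filaments at cell junctions, 15 were tested, none passed the edgeR threshold, 1 (*EVPL*) had an unadjusted p-value under 0.05 in edgeR, and DESeq2 called that 1 and the linear models none. Their median log2 fold change was -0.21. *PLEC*, the cytolinker plectin, had 927 ± 108 CPM in *ZK3*-WT and 1028 ± 475 CPM in *ZK3*-KO cells, and *DST*, the hemidesmosome plakin, 367 ± 61.7 and 316 ± 130 CPM (SD, n = 3 each), with FDR values of 0.838 and 0.767 from edgeR. *EVPL*, envoplakin, was singled out after its values were seen, as the gene of the list with the smallest p-value. It had 142, 168 and 153 CPM in the wild-type libraries and 100, 98.2 and 104 CPM in the knockout libraries (log2 fold change -0.62, edgeR FDR 0.0719), with groups that did not overlap.

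Of 18 other intermediate filament genes, 12 were tested and none passed the edgeR threshold, with 3 (*SYNM*, *NES* and *BFSP1*) at an unadjusted p-value under 0.05 in edgeR and a median log2 fold change of -0.34. *SYNM*, which encodes synemin, was the 1 gene called by DESeq2 and under the replicate block, and the linear models called none (log2 fold change -1.11, FDR 0.0552 in edgeR's test without and 0.0244 with the block). *LMNA* and *LMNB2*, nuclear lamins, were the most abundant, with log2 fold changes of -0.21 and 0.26 (FDR 0.677 and 0.656 from edgeR).

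All 27 genes listed as regulators of keratin filaments (kinases, caspases, chaperones and binding proteins) were tested, with a median log2 fold change of 0.12, and 1 passed the edgeR threshold. It was *TGM2*, tissue transglutaminase, which crosslinks proteins. It fell from 33.4 ± 3.43 CPM in *ZK3*-WT to 9.46 ± 0.761 CPM in *ZK3*-KO cells (SD, n = 3 each), which is -1.82 as log2 fold change (standard error 0.16, edgeR FDR 0.00441), and passed in all 15 alternative fits. *YWHAZ*, a 14-3-3 protein, and *HSPA8*, a chaperone, were the most abundant of the list, with log2 fold changes of 0.35 and 1.23 (FDR 0.341 and 0.160 from edgeR). *HSPA8* reached 2723 CPM in *ZK3*-KO replicate 2 against 1340 and 919 CPM in replicates 1 and 3, and its log2 fold change was 0.68 without replicate 2. Its groups did not overlap, and it passed in DESeq2 (FDR 0.0237) and in edgeR without *ZK3*-KO replicate 3 (FDR 0.00795). Of the 27 genes, 17 were higher and 10 lower, and 6 had an unadjusted p-value under 0.05 in edgeR. The groups did not overlap for 8 higher genes and 1 lower gene, beside 2336 and 2543 of all 18366 genes. DESeq2 called *SFN*, *HSPA1A*, *HSPA8* and *TGM2*, 3 higher and 1 lower. The linear models called *TGM2*, and that on log2(CPM + 1) also *SFN*. Without *ZK3*-KO replicate 3, 6 passed in edgeR as higher and 1 as lower, beside 1399 and 1459 of 18872 genes.

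Genes of differentiated colonocytes, the cells that *KRT20* marks in the colon, were mostly silent, with 22 of 32 untested for low counts. None of the 10 tested genes passed the edgeR threshold, 3 (*CA2*, *MUC12* and *TSPAN1*) had an unadjusted p-value under 0.05 in edgeR, DESeq2 called these and *CDHR5*, the linear models called none, and the median log2 fold change was -0.06. *SLC26A2*, a sulfate transporter, and *CA2*, a carbonic anhydrase, were the most abundant, with log2 fold changes of -0.17 and 1.52 (FDR 0.843 and 0.129 from edgeR). *CA2* was high in *ZK3*-KO replicates 1 and 2 (36.5 and 42.3 CPM) and at 12.7 CPM in replicate 3, within the *ZK3*-WT range of 8.60 to 13.6 CPM. Of 15 stratified epithelium genes 4 were tested, none passed in edgeR, DESeq2 or the linear models with all libraries, and *LY6D* had an unadjusted p-value under 0.05 in edgeR. *CSTA* encodes a cystatin of cornifying cells. It had 12.3, 15.4 and 15.3 CPM in the wild-type libraries and 8.14, 3.37 and 36.8 CPM in the knockout libraries. The knockout libraries stood in the same order as for *KRT15*, while the wild-type libraries did not. *TGM1* had 2.04 to 6.28 CPM. Without *ZK3*-KO replicate 3 *CSTA* passed as lower (log2 fold change -1.31, edgeR FDR 0.0315), the 1 gene of this list to do so.

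Markers of other cell types were low, and no marker on these lists passed in edgeR, DESeq2 or the linear models, nor had an unadjusted p-value under 0.05 in edgeR, with all libraries. Of the 7 tested epithelial markers 6 were highest in *ZK3*-KO replicate 3, the library in which *KRT8*, *KRT18* and *KRT19* were highest too. Without that library the median log2 fold change of the 7 was -0.60. Mesenchymal markers summed to 54.6 to 68.3 CPM in *ZK3*-WT and 41.2 to 107 CPM in *ZK3*-KO libraries, nearly all of it *COL1A1*, with *ZEB1* next, and 7 of the 10 stayed below 1 CPM. Immune markers summed to 1.85 to 10.7 CPM, mostly *CD68*, with *CD14* below 1 CPM and *PTPRC* and *CD3E* at 0 reads. Endothelial markers (*VWF*, *KDR*, *PECAM1* and *CDH5*) summed to at most 2.50 CPM. What part the makeup of *ZK3*-KO replicate 3 had in its keratin values was not tested.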

How the data were processed

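RNA of 3 *ZK3*-WT and 3 *ZK3*-KO samples was sequenced by the authors as 150 bp paired-end stranded mRNA libraries. The authors deposited 1 table of raw read counts per gene. The deposited table also holds FPKM and TPM values, scaled by transcript length by the authors. The methods name Partek Flow, the Bowtie 2 aligner (version 2.2.5 in the submitters' processing notes) and an Ensembl annotation of hg19, while the table lists RefSeq transcripts. The counting tool is not given in the sources used here. Columns were matched to libraries through their names.

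The tests ran in edgeR 4.0.16 under R 4.3.3 (filterByExpr, TMM factors of 0.910 to 1.03, quasi-likelihood test on genotype alone). Adjustment followed Benjamini and Hochberg over all 18366 tested genes, with a false discovery rate (FDR) threshold of 0.05. P-values set the difference between the genotypes against the spread between these libraries. They do not cover the spread between knockout clones. Standard errors were derived from the fold change and the F statistic. TPM served for comparisons between genes and for ratios, which were tested by exact two-sided permutation over libraries with scipy 1.17.1. Alternatives were DESeq2 1.42.0, limma 3.58.1 on log2(CPM + 1) and log2(TPM + 1), library totals, upper-quartile factors, at least 1 read, at least 10 reads in every library, pseudogene reads added to their parents, the replicate number as a block, and each library left out. FPKM was used in 1 alternative for ratios. The scripts were tested on simulated counts.

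Replicate numbers come from the sample titles, which do not say what they mark. Deviations of same-numbered libraries from their group means correlated across genes at 0.473, 0.124 and 0.616 for numbers 1, 2 and 3, all over 0.1, so the numbers were taken to pair the libraries. Differently numbered pairs ran from -0.573 to 0.289, and the highest of them (*ZK3*-WT 1 with *ZK3*-KO 2) was above the same-numbered pair 2, so that the pairing is less clear for number 2. The chi-square per degree of freedom between replicates was at least 41.5, so no library was a copy of another.

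The members and lists were chosen with earlier results of these data known. The text names all 10 members, the genes of each other list past the threshold and, where fewer than 2 passed, its 2 most abundant, and the 3 genes most correlated with *KRT8* and *KRT18*. Genes named outside this rule (*EVPL*, *SYNM*, *NES*, *BFSP1*, *SFN*, *HSPA1A*, *MUC12*, *TSPAN1*, *CDHR5*, *FOXA1*, *CLDN3*, *CLDN4*, *LY6D*, *KRT81*, *KRT86*, *KRT32*, *KRT39* and the KRTAP genes) were chosen after their values were seen. Positions came from GENCODE for GRCh37, promoters from RefSeq for GRCh38.p14.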

Additional observations from a re-analysis of the deposited data

How the results depend on the processing

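Counts of genes past an FDR of 0.05 depended most on the libraries used. Leaving out each library in turn gave 49 to 2858 of all genes (376 with all), 0 to 5 keratin genes of the 10, 0 to 2 of the other keratins, 0 to 4 of the other intermediate filaments, 0 to 3 of the desmosome and plakin genes, 1 to 7 of the filament regulators, 1 to 6 of the transcription factors and 0 to 3 of the colonocyte genes, with the highest number in each case without *ZK3*-KO replicate 3. The split of calls was 150 higher and 226 lower with all libraries in edgeR and 88 higher and 294 lower on log2(TPM + 1). Leaving out *ZK3*-WT replicates 1, 2 and 3 and *ZK3*-KO replicates 1 and 2 gave 67, 49, 57, 74 and 158 genes. DESeq2 called 1288 genes, 587 higher and 701 lower, among them 2 of the 10 keratin genes, 1 other keratin, 1 other intermediate filament gene, 1 desmosome or plakin gene, 4 filament regulators and 4 colonocyte genes. Of the 10 keratin genes, 1 (*KRT23*) passed with library totals and in the linear models on log2(CPM + 1) and log2(TPM + 1), and 2 passed with the replicate block. The linear models also called 1 other keratin each, that on log2(CPM + 1) called 2 filament regulators, and the block called 1 other intermediate filament gene. Over 15 alternatives the FDR of *KRT23* ranged from 2.74e-06 (DESeq2) to 0.251 and it passed in 6, and that of *KRT80* ranged from 0.00115 to 0.416 and it passed in 3, in each case always lower in *ZK3*-KO cells. The block changed no call among the 10 keratin genes other than *KRT23* and *KRT80*.

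Some log2 fold changes turned sign, among them that of *KRT16* (1.16 with all libraries). Over the leave-one-out fits the log2 fold change ran from -0.14 to 0.32 for *KRT8*, -0.36 to 0.39 for *KRT18*, -0.54 to 0.23 for *KRT19*, -1.38 to 0.14 for *KRT15*, -3.97 to 0.69 for *KRT17* (the lowest from 3 knockout reads), -0.13 to 0.50 for *KRT10*, -0.29 to 0.086 for *ZKSCAN3*, -0.49 to 0.56 for *CD68*, -0.31 to 0.54 for *COL1A1*, -1.31 to 0.65 for *CSTA*, -0.51 to 0.077 for *DST*, -0.60 to 0.059 for *ESRP1*, -0.26 to 0.93 for *KRT13*, -1.25 to 1.68 for *KRT16*, -0.0095 to 0.50 for *LMNB2*, -0.29 to 0.34 for *PLEC*, -0.39 to 0.16 for *SLC26A2* and -0.047 to 0.74 for *TGM1*. The same fits gave -0.34 to 0.035 for the summed keratin TPM, -0.20 to 0.049 for *KRT18* to *KRT8* and -0.45 to 0.019 for *KRT19* to *KRT18*. On log2(TPM + 1), where the median of all genes lay 0.10 lower than in edgeR's fit, *KRT18* was at -0.049, *KRT17* at -0.16, *COL1A1* at -0.032, *CSTA* at -0.59 and *PLEC* at -0.077. *KRT17* was at -0.11 with library totals, -0.059 on log2(CPM + 1) and -1.12 with the block, and *CSTA* at -0.41 and -0.49 in the last 2. The summed keratin level was 0.020 on the CPM scale. The cause was not tested.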
